A study of Homo sapiens with 4 samples.

Results

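GCT27 is an established human line of embryonal carcinoma, the undifferentiated form of non-seminomatous germ cell tumour. It is 1 of 4 arrays in the series and was chosen by its label, and its genes were set against those of the 3 other lines. TCam-2 stands for seminoma, NT2D1 for a tumour labelled teratoma and taken from a lung metastasis, and GCT44 for yolk sac tumour. GCT27, NT2D1 and GCT44 were grown in DMEM and TCam-2 in RPMI, all with 10% fetal bovine serum and antibiotics, so medium and line cannot be told apart in any comparison with TCam-2. Despite its label, NT2D1 is often treated as an embryonal carcinoma line with pluripotent properties. No line carried a treatment or an engineered allele.

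Embryonal carcinoma cells resemble the pluripotent cells of the early embryo. They keep the transcription factor circuit of OCT4, SOX2 and NANOG running, with support from NODAL, activin and FGF signals, while BMP signals push such cells towards extraembryonic and mesodermal fates. NODAL induces its own antagonists, the LEFTY proteins, and the ID proteins are direct targets of BMP signalling.

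Total RNA of each line was hybridized to 1 Affymetrix U133 Plus array with 54675 probe sets, whose values are linear intensities in array units. Median intensity was 79.3 units in GCT27 and 73.6 to 77.4 in the other lines. The spiked-in hybridization controls of the GCT27 array lay 0.26 below their mean over the arrays on the log2 scale, the lowest of the 4 arrays. Its 3'/5' signal ratios were 2.97 for ACTB and 0.898 for GAPDH, against 2.49 to 4.21 and 0.981 to 1.09 elsewhere. There is no replicate of any line, so no value below has a replicate error, no test was made, and precision is limited by having a single array per line. In bulk cultures, fewer cells that express a gene and less RNA per cell cannot be told apart.

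Each gene was represented by the probe set with the highest mean log2 value among those assigned to that gene alone. Intensities under 76.4 units, the median of all values, were set to that floor for comparisons, since dim probe sets carry no reliable order. Folds against values at the floor are given as "at least". A gene was counted as higher in GCT27 when it lay at least 4-fold above the nearest of the other lines, and as lower when it lay at least 4-fold below the nearest. Of 14926 genes compared, 90 were higher (0.603%) and 48 were lower (0.322%). When the arrays were scaled to the spiked-in controls instead, 148 genes were higher and 38 lower, and the median difference of all genes from the mean of the other lines moved to 0.29 from its main value of -0.02 on the log2 scale.

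The markers of the label were present. All 10 embryonal carcinoma markers with a probe set of their own lay above the floor in GCT27, as they did in TCam-2 and NT2D1, among them NANOG with 22428 units, LIN28A with 21142, PODXL with 18121 and the CD30 gene TNFRSF8 with 360. The summed intensity of these markers was 142077 units in GCT27, against 109243 in TCam-2, 129184 in NT2D1 and 36425 in GCT44. KRT8 was lowest in GCT27, with 2123 units, against 10085 in TCam-2, 5051 in NT2D1 and 2600 in GCT44. KRT18 had 17953 units in GCT27, against 34792 in TCam-2, 22853 in NT2D1 and 6724 in GCT44. POU5F1, which encodes OCT4, and TDGF1 had no probe set assigned to them alone and were not analysed here. Of 7 seminoma markers 5 lay above the floor, PRDM1 at 93.1 units and CXCR4 at 91.5 only just, but SOX17 at 44.2 and TCL1A at 13.8 did not. The summed intensity of the seminoma markers was 6354 units in GCT27, against 44177 in TCam-2, 5526 in NT2D1 and 3649 in GCT44. Of 8 yolk sac tumour markers 2 lay above the floor, AFP at 85.4 units and GPC3 at 1019, while APOA2 at 66.6 and FOXA2 at 4.77 lay below it. Only GATA3, at 283 units, lay above the floor among 4 trophoblast markers. The summed intensity of the yolk sac markers was 1311 units in GCT27, against 2004 in TCam-2, 2924 in NT2D1 and 49531 in GCT44.

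HORMAD1, which encodes a meiotic chromosome axis protein and is a cancer-testis antigen, had the widest margin of all genes higher in GCT27. Its intensity was 5949 units in GCT27, against 57.1 in TCam-2, 44.5 in NT2D1 and 69.8 in GCT44. All 3 other lines lay below the floor, so the difference was at least 77.8-fold. EDNRB, the endothelin receptor B needed by neural crest cells, had 10292 units in GCT27, against 502 in TCam-2, 77.5 in NT2D1 and 22.6 in GCT44, a 20.5-fold margin. Its other probe sets gave margins of 2.78 and 4.96 on the log2 scale. LEFTY1, a secreted inhibitor of NODAL, had 1255 units in GCT27, against 48.3 in TCam-2, 115 in NT2D1 and 25.2 in GCT44, a 10.9-fold margin. HORMAD1 and LEFTY1 had no other probe set of their own, so a second reading was not made for them.

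Some of the widest margins belonged to long non-coding RNAs, whose share among all genes compared was not determined. LINC02582 had 4310 units in GCT27, against 51.9 in TCam-2, 9.32 in NT2D1 and 3.77 in GCT44, at least 56.4-fold. ARGLU1-DT had 5749 units in GCT27 and 132 in NT2D1, the nearest line, a 43.5-fold margin. VHRT had 12618 units in GCT27 and 305 in TCam-2, a 41.3-fold margin. ARFGEF1-DT, at 1527 units, was at least 20-fold higher and lay near 0 in all other lines, at 5.19 to 9.02 units. None of these is assigned a role here.

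Genes of secreted and surface proteins followed. EDIL3, an extracellular protein that binds integrins, had 16985 units in GCT27, against 248 in TCam-2, 683 in NT2D1 and 42.6 in GCT44. That margin of 24.9-fold dropped to 1.66 on the log2 scale, short of the threshold, with the median over its probe sets, the others of which were dim. IL13RA2, a decoy receptor for interleukin 13, had 1390 units and was at least 18.2-fold higher. The complement protease C1S had 2197 units in GCT27, against 159 in TCam-2, 124 in NT2D1 and 13.4 in GCT44, and the neutrophil chemokine CXCL5 had 980 units and was at least 12.8-fold higher. C1S was short of the threshold, at 1.07, without probe sets that can match several transcripts, and CXCL5, at 1.54, with the median over probe sets.

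Of the remaining widest margins, VSNL1, a calcium sensor of neurons, had 14620 units in GCT27, against 686 in TCam-2, 1206 in NT2D1 and 94.2 in GCT44, and its other probe set gave 4.13 on the log2 scale. BBS9, a subunit of the ciliary BBSome, had 6269 units in GCT27 and 399 to 445 elsewhere, with margins of 4.31 and 4.49 in its brighter other probe sets. POU2F3, a POU domain factor of tuft cells, had 877 units and was at least 11.5-fold higher, but its margin was 1.58 with the median over probe sets. These genes were bright in GCT27 while at least 1 of the other lines lay near or under the floor, except for BBS9. The remaining gene among the 15 widest margins is not reported here.

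Genes lower in GCT27 were led by ZNF22, a zinc finger gene. It had 90.3 units in GCT27, against 2957 in TCam-2, 2733 in NT2D1 and 2873 in GCT44, a 30.3-fold margin, and its other probe set gave 4.02 on the log2 scale. CYB5A, the electron carrier cytochrome b5, had 46.5 units in GCT27, against 4766 in TCam-2, 2191 in NT2D1 and 4852 in GCT44, at least 28.7-fold lower. WLS, which carries WNT ligands to the cell surface, had 156 units in GCT27, against 3822 in TCam-2, 6708 in NT2D1 and 6236 in GCT44, a 24.5-fold margin. In each of these genes the 3 other lines were bright and GCT27 stood alone near the floor. The other probe sets of CYB5A that reached the floor gave margins of 4.50 and 4.82, and those of WLS 3.91 and 4.42.

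NUDT19, a coenzyme A hydrolase, was at least 17.4-fold lower at 40.1 units, the Arf GTPase activator ASAP2 at least 12.1-fold at 52.0, and the histamine methyltransferase HNMT at least 11.5-fold at 70.6. HNMT rests on 1 probe set, since its others lay below the floor in at least 1 other line and so could show no fall. Its margin was 0.00 with the median over its probe sets. HTATIP2 had 197 units in GCT27, against 4680 in TCam-2, 2242 in NT2D1 and 3009 in GCT44, an 11.4-fold margin. RBM24, an RNA-binding regulator of splicing in muscle, had 48.7 units and was at least 10.6-fold lower. NAP1L5, an imprinted gene of the nucleosome assembly protein family, had 9.13 units in GCT27, against 806 in TCam-2, 773 in NT2D1 and 956 in GCT44, at least 10.1-fold lower.

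Several of the rest regulate signalling or development. ID2, an inhibitor of helix-loop-helix factors, had 623 units in GCT27, against 12475 in TCam-2, 7488 in NT2D1 and 6561 in GCT44, a 10.5-fold margin. DUSP6, the phosphatase that ERK signalling induces to limit itself, had 75.5 units in GCT27, against 744 in TCam-2, 6375 in NT2D1 and 10955 in GCT44, at least 9.73-fold lower. SP8, a zinc finger factor of limb and forebrain, had 134 units in GCT27, against 1092 in TCam-2, 4353 in NT2D1 and 5042 in GCT44, an 8.14-fold margin. The guidance ligand SEMA6D was at least 7.34-fold lower, the histone deubiquitinase USP3 7.25-fold and KCTD15, which limits neural crest formation in zebrafish, 7.19-fold. With the median over probe sets the margin of USP3 was 1.99 and that of KCTD15 0.40, although another KCTD15 probe set gave 2.39. GCT27 itself lay below the floor in 24 of the 48 lower genes.

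**Figure D1:**
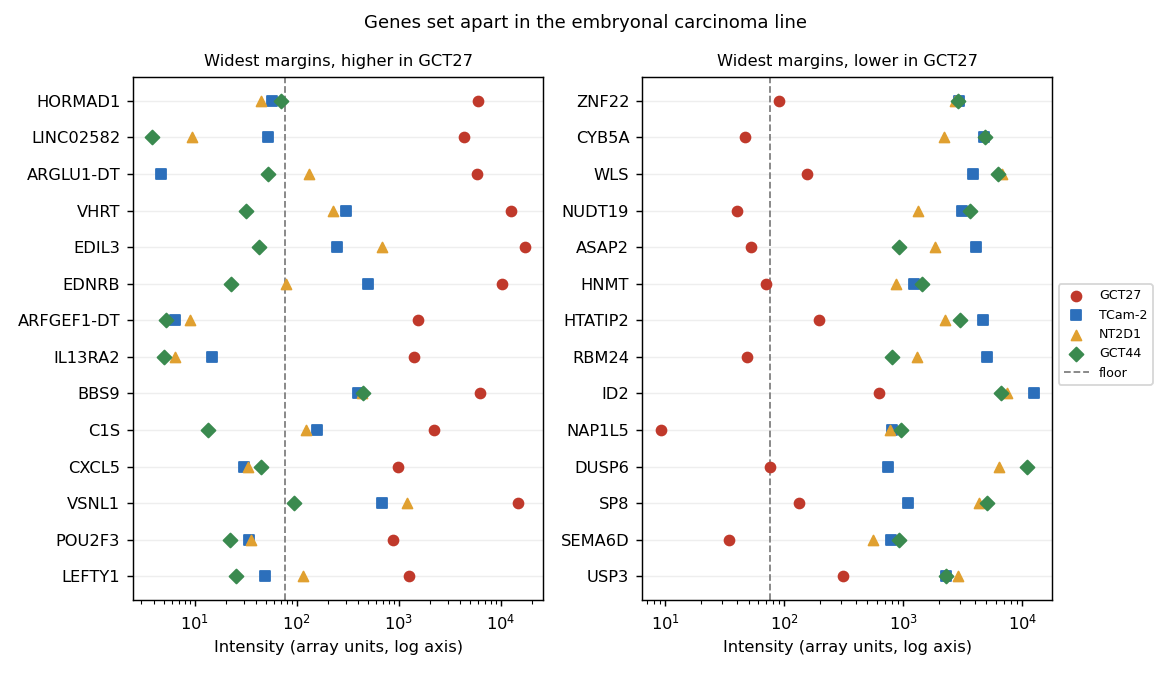
Intensity of 14 genes with the widest margins higher (left) and 14 lower (right) in GCT27, 1 point per line on a log axis in array units, with the floor of 76.4 units dashed. GCT27 lies alone to the right of the other lines on the left, up to 16985 units for EDIL3, and alone to the left of them on the right.

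The bases before the start site are shown for 5 of these genes because the series set expression beside DNA methylation, which falls on CG dinucleotides. Each run holds the 250 bases before the first listed start in RefSeq (GRCh38.p14), read 5′ to 3′ on the gene's strand, and capitals mark CG, which reads alike on both strands. EDNRB and VSNL1 were higher in GCT27, while CYB5A, WLS and NAP1L5 were lower there. The windows of HORMAD1 and LEFTY1 were not used here.
EDNRB, chr13:77919683-77919932, minus strand: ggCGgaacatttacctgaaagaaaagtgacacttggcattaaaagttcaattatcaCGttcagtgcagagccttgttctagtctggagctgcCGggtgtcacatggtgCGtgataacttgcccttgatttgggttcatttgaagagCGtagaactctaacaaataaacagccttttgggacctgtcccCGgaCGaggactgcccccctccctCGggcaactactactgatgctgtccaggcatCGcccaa
VSNL1, chr2:17539722-17539971, plus strand: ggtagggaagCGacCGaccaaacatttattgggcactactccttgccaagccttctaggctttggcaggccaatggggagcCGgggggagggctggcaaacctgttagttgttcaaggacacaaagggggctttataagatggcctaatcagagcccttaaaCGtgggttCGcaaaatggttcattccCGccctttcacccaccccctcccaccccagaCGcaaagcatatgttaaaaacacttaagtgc
CYB5A, chr18:74291964-74292213, minus strand: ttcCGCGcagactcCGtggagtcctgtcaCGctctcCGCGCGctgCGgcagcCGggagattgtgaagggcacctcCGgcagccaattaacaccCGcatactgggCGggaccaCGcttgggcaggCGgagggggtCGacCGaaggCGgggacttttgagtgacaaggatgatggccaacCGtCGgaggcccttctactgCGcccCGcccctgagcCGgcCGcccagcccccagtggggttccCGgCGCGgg
WLS, chr1:68232524-68232773, minus strand: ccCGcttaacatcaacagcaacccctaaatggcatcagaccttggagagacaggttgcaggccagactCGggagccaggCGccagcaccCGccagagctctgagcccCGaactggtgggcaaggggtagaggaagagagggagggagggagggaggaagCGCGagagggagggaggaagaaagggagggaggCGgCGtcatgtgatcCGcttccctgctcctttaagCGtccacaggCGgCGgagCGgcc
NAP1L5, chr4:88697830-88698079, minus strand: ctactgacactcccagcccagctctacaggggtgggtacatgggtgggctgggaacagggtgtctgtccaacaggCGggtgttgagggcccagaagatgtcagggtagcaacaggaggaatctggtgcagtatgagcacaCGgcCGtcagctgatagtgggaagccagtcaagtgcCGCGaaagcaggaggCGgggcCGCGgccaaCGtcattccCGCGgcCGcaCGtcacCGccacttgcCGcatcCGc

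EDNRB held 9 CG, VSNL1 7, CYB5A 26, WLS 14 and NAP1L5 16. At least 1 CG was present in 93.6% of the 27305 windows of all genes in the table, whose median was 11. Over the 11926 genes compared here that had a window, the median was 20. A comparison of CG counts between gene sets is void, because only 61 of the 90 higher genes and 79.9% of all genes compared had a window, so these 5 windows stand for no set. Methylation itself was not analysed here.

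Genes just inside the threshold were TRIM25 (4.05-fold) and MGARP (4.02-fold) among the higher genes, and EFS (4.16-fold) and ABCB10 (4.04-fold) among the lower. Just outside lay HLA-DPB2 (3.98-fold) and PTAFR (3.96-fold) above, and IRF2BP2 (3.91-fold) and CHD7 (3.89-fold) below. The nearest line was NT2D1 for 37 of the 90 higher and 23 of the 48 lower genes, TCam-2 for 21 and 12, and GCT44 for 12 and 13. In the other 20 higher genes all 3 lines lay below the floor. Margins of dim genes depend on that floor. With a floor of 252 units, the 70th percentile, 13 named genes fell short of the rule: CXCL5 (1.96), ASAP2 (1.87), POU2F3 (1.80), HNMT (1.80), NODAL (1.78), RBM24 (1.68), NAP1L5 (1.62), DUSP6 (1.56), SEMA6D (1.15), SOX8 (0.70), WNT10B (0.47), TET2 (0.43) and PSMB8 (0.41), as log2 margins.

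The other probe sets of a gene give a further reading of the same RNA. Among the higher genes other than the 1 not reported here, 34 of 89 had at least 1 other probe set that reached the floor in some line. Of these 50 probe sets, 18 reached a 4-fold margin, GCT27 was the highest line in 47, and in 3 another line was higher. Among the lower genes 33 of 48 had one. Of these 63 probe sets, 17 reached a 4-fold margin, GCT27 was the lowest line in 36, the margin was 0 at the floor in 22, and in 5 another line was lower. Many of these probe sets were too dim to show a 4-fold difference, and for the remaining genes the probe set used is the single reading.

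GCT27 was set against each line in turn to see which it resembled. It was at least 4-fold apart from NT2D1 in 697 genes (4.67%), from TCam-2 in 1100 (7.37%) and from GCT44 in 1411 (9.45%). Pearson correlation across the 14926 genes was 0.911 with NT2D1, 0.877 with TCam-2 and 0.839 with GCT44, as a description of single arrays. The median difference from NT2D1 is given below for each list beside the difference from the mean of the other lines. Group values are medians of log2 differences on floored values, to be read against -0.02 from the mean of the other lines and 0.00 from NT2D1 over all genes compared. GCT27 had the highest value of the 4 lines in 24.8% of all genes and the lowest in 17.7%. The medians of these lists carry no test, and members named beyond the first 3 compared and those that met the 4-fold rule were chosen after their values were seen.

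Embryonal carcinoma and primed pluripotency genes had the highest list median, 2.46 over 24 genes. Against NT2D1 alone it was 0.34, and without GCT44 among the other lines it was 1.07. GCT27 was the highest line for 13 of the 24 genes. LEFTY1 met the 4-fold rule, as did the neuropeptide gene GAL, with 15967 units in GCT27, against 339 in TCam-2, 1536 in NT2D1 and 92.3 in GCT44. SOX2 and DNMT3B, at 18309 and 23760 units, did not meet it because NT2D1 had 20575 and 11360. GDF3, a TGF-beta ligand of pluripotent cells, had 16726 units in GCT27, against 334 in TCam-2, 5915 in NT2D1 and 543 in GCT44. OTX2, a factor of the primed state and forebrain, had 750 units in GCT27, against 892 in TCam-2, 9043 in NT2D1 and 9762 in GCT44.

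No member met the rule among 20 shared and naive pluripotency genes, whose median was 0.61 and 0.55 against NT2D1. LIN28B had 5621 units in GCT27 and 5245 to 7936 elsewhere, and SALL4 3356 and 1695 to 2949. PRDM14, which represses differentiation in pluripotent and germ cells, had 2014 units in GCT27, against 473 in TCam-2, 656 in NT2D1 and 12.5 in GCT44. DPPA4 had 21768 units in GCT27 and 12.5 to 10399 elsewhere. DPPA5 was at 176 units in GCT27, while its values of 2.36 to 3.43 in the other lines lay below the floor. Other members were highest elsewhere: KLF4 had 1803 units in GCT27 and 10861 in TCam-2, KLF5 630 and 4124, and TFCP2L1 361 and 2528. TBX3 lay below the floor in GCT27 at 55.7 units, against 2076 in TCam-2, 191 in NT2D1 and 5858 in GCT44. GCT27 was the highest line for 8 of the 20 genes and the lowest for 2.

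Of 22 NODAL and activin genes, 2 met the rule, both higher. NODAL itself had 864 units in GCT27, against 81.1 in TCam-2, 128 in NT2D1 and 80.5 in GCT44, a 6.73-fold margin, and LEFTY1 met the rule as given above. The margin of NODAL was 1.04 with the median over its probe sets, the others of which were dim. CER1, a further secreted antagonist, was level with the floor at 76.5 units in GCT27 and below it elsewhere, a margin of 0.00 on the log2 scale. FST, which binds activins, had 386 units in GCT27, against 1382 in TCam-2, 6152 in NT2D1 and 2719 in GCT44. No receptor or SMAD met the rule: ACVR1B had 1587 units in GCT27 and 1608 in NT2D1, ACVR2B 3782 and 6339, SMAD2 1939 and 1538, and the partner factor FOXH1 913 and 569. The ligand gene INHBA had 150 units in GCT27 and 141 in NT2D1. The list median was -0.05, and 0.00 against NT2D1.

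BMP signalling genes had the lowest list median, -1.34 over 28 genes and -1.23 against NT2D1 alone. GCT27 was the lowest line for 14 of the 28 and the highest for 2. Over the other settings tried the median lay between -1.43 and -0.92, and it was -0.99 when arrays were scaled to the spiked-in controls. Only ID2 met the 4-fold rule, and its other probe set gave a margin of 3.20. Among the ligands, BMP2 had 20.6 units in GCT27, against 236 in TCam-2, 190 in NT2D1 and 6081 in GCT44. BMP4 had 237 units in GCT27, between 222 in TCam-2 and 797 in NT2D1, and BMP5 at 74.4 units lay below the floor in GCT27, as it did in NT2D1.

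Among BMP receptors, BMPR1B had 54.1 units in GCT27, against 296 in TCam-2, 317 in NT2D1 and 803 in GCT44, just short of the rule. BMPR2 had 551 units in GCT27 and 1231 to 1744 elsewhere, and ACVR1 733 and 1131 to 3960. These receptor genes were lower in GCT27 than in each of the other lines. Of the targets and feedback inhibitors, SMAD6 had 168 units in GCT27 and 395 to 1493 elsewhere, SMAD9 111 and 238 to 1285, MSX2 289 and 1064 to 4515, and BAMBI 1329 and 2596 to 6529. ID1 and ID3 were not set apart, at 5372 units in GCT27 against 5810 in NT2D1 for ID1 and at 4600 against 4088 for ID3. The secreted antagonist NOG had 302 units in GCT27, against 4.04 in TCam-2, 905 in NT2D1 and 59.8 in GCT44.

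**Figure D2:**
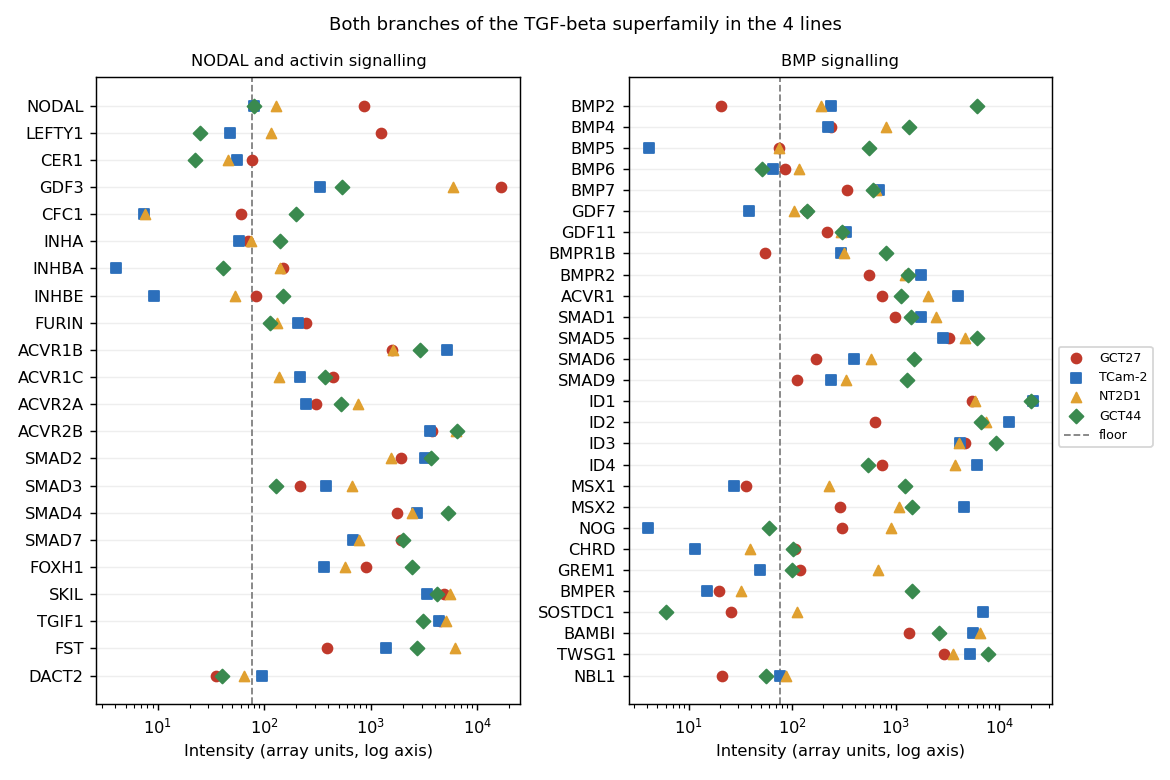
Intensity of 22 NODAL and activin genes (left) and 28 BMP genes (right) in the 4 lines, on a log axis in array units with the floor of 76.4 units dashed. GCT27 is the rightmost point for NODAL at 864 units and LEFTY1 at 1255, and the leftmost point for BMP genes such as ID2, BMPR2, SMAD6 and MSX2.

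FGF signalling genes had a median of 0.53 over 24 genes, or 0.37 against NT2D1. The ligands FGF1, FGF2 and FGF4 had 79.8, 1423 and 791 units in GCT27, against 24.8, 1953 and 696 in NT2D1. The ETS factors that ERK signalling induces were highest in GCT27, short of the 4-fold rule: ETV1 had 8207 units in GCT27 and 677 to 3674 elsewhere, ETV4 575 and 82.1 to 277, and ETV5 3869 and 727 to 2546. SPRY2, another ERK feedback inhibitor, had 8109 units in GCT27 and 905 to 5352 elsewhere. DUSP6 alone met the 4-fold rule and it was lower, and DUSP4 had 235 units in GCT27, against 309 in TCam-2, 1715 in NT2D1 and 1162 in GCT44. The feedback genes SPRED1 and IL17RD were also highest in GCT27, by less, at 3939 units against 1220 to 3181 and 8625 against 1086 to 7324. DUSP5, SPRY1, SPRY4 and SPRED2 lay within the range of the other lines. DUSP5 had 2038 units in GCT27 and 494 to 4437 elsewhere, SPRY1 1152 and 863 to 1201, SPRY4 602 and 451 to 951, and SPRED2 1349 and 892 to 2159.

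WNT signalling genes had a median of -0.30 over 35 genes and 0.00 against NT2D1. The ligand gene WNT10B was higher, with 348 units in GCT27, against 30.1 in TCam-2, 56.2 in NT2D1 and 79.2 in GCT44, and SP8 was lower. WNT2B lay below the floor at 45.9 units, WNT5A had 241 units in GCT27 and 1360 in NT2D1, and WNT5B 324 and 222. The antagonist SFRP1 had 310 units in GCT27, against 705 in TCam-2, 5857 in NT2D1 and 3379 in GCT44. The antagonist SFRP2 had 9777 units in GCT27, against 3.86 in TCam-2, 6124 in NT2D1 and 44.5 in GCT44. AXIN2, a general target of the pathway, had 1490 units in GCT27, against 1511 in TCam-2, 587 in NT2D1 and 924 in GCT44.

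HORMAD1 stood alone among meiosis genes. Of 36 entries only 20 reached the floor in any line, and no other member met the rule. HORMAD2 had 95.5 units in GCT27 and 77.4 in NT2D1, the synaptonemal complex genes SYCP2 and SYCP3 had 14.6 and 103 units, and the meiotic recombinase DMC1 had 144. The list median was -0.09, and 0.00 against NT2D1. Cancer-testis genes had a median of -0.63 over 16 genes, and 0.00 against NT2D1, with none meeting the rule in either direction. MAGEA1 and MAGEA4 had 19.2 and 122 units in GCT27, and MAGEA6 had 368, against 64.2 in TCam-2, 32.5 in NT2D1 and 28020 in GCT44, where near-identical family members can share the signal.

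Germ cell specification genes had a median of 0.26 over 21 genes and 0.36 against NT2D1. PRDM1 had 93.1 units in GCT27 and 2481 in TCam-2, SOX17 lay below the floor at 44.2 units, and TFAP2C had 2442 units in GCT27, against 20557 in TCam-2, 1901 in NT2D1 and 72.3 in GCT44. KIT, the stem cell factor receptor, was even across lines, at 1375 units in GCT27 and 1144 to 1771 elsewhere. The endothelin and neural crest list had a median of 0.01 over 23 genes, and 0.00 against NT2D1. EDNRB and the neural crest factor SOX8 were higher, SOX8 with 411 units and at least 5.38-fold. The endothelin ligand EDN1 lay below the floor in GCT27 at 29.8 units, against 1111 in TCam-2, and its processing enzyme ECE1 was even at 227 units and 210 to 220 elsewhere. ECE2 had 244 units in GCT27 and SOX10, the central neural crest factor, lay below the floor at 18.1. EDNRB was thus high in GCT27 while EDN1 and SOX10 lay below the floor there.

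Genes of the DNA methylation machinery had a median of -0.17 over 22 genes, and 0.01 against NT2D1. APOBEC3B, a cytidine deaminase, was higher, with 1479 units in GCT27, against 124 in TCam-2, 27.7 in NT2D1 and 225 in GCT44. TET2, which oxidizes methylcytosine, was at least 4.45-fold lower, with 72.4 units in GCT27, against 1048 in TCam-2, 340 in NT2D1 and 574 in GCT44. Its margin was 0.00 with the median over its probe sets, the others of which were dim in every line. DNMT1 had 4335 units in GCT27 and 2171 to 5532 elsewhere and DNMT3A 3991 and 3339 to 3519. The ubiquitin ligase UHRF2 had 587 units in GCT27 and 1598 to 4631 elsewhere.

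NAP1L5 was the only one of 23 imprinted genes to meet the rule, and its other probe set gave a margin of 2.79. IGF2R had 2725 units in GCT27 and 2179 to 3529 elsewhere, and PEG10 6841 and 3144 to 12626. PEG3 had 3500 units in GCT27, against 12670 in TCam-2, 13481 in NT2D1 and 21621 in GCT44, and PLAGL1 had 201, against 698, 5901 and 5909. The list median was -0.01, and 0.03 against NT2D1. Among 21 genes known as methylation targets in tumours, with a median of -0.26, and -0.02 against NT2D1, the protease inhibitor TFPI2 was higher, with 3982 units in GCT27, against 58.2 in TCam-2, 846 in NT2D1 and 87 in GCT44. Its other probe set gave a margin of 3.03. RASSF1 had 92.9 units in GCT27 and 222 to 306 elsewhere, MGMT lay below the floor at 6.2 units, as it did in NT2D1 at 76.3, and CDKN2A had 158 units in GCT27 and 162 to 204 elsewhere.

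Antigen presentation genes had a median of 0.85 over 22 genes and 0.66 against NT2D1, and GCT27 was the highest line for 11 of them. PSMB8, a subunit of the immunoproteasome that interferon induces, had 336 units in GCT27, against 5.35 in TCam-2, 3.81 in NT2D1 and 4.05 in GCT44, at least 4.4-fold, a call lost at the higher floor. Its partner PSMB9 had 232 units in GCT27 while the other lines lay below the floor. The peptide transporter genes TAP1 and TAP2 had 403 and 413 units in GCT27, against 118 and 57.2 in TCam-2, 22.5 and 206 in NT2D1, and 117 and 35.3 in GCT44. HLA-B and HLA-C had 1522 and 2291 units in GCT27, with HLA-C at 2387 in NT2D1, and HLA-E had 1114. ERAP1, which trims peptides, had 83.4 units in GCT27, against 829 in TCam-2, 811 in NT2D1 and 160 in GCT44.

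p53 targets and apoptosis genes had a median of 0.63 over 26 genes and 0.96 against NT2D1, with 13 of them highest in GCT27 and none meeting the 4-fold rule. MDM2 had 11766 units in GCT27, against 11605 in TCam-2, 3509 in NT2D1 and 11332 in GCT44. CDKN1A had 724 units in GCT27 and 262 in NT2D1, and BAX 3232 and 1689. The death receptor FAS had 855 units in GCT27, against 139 in TCam-2, 198 in NT2D1 and 347 in GCT44, and TNFRSF10B 13424 units, against 6177, 4924 and 4147. NT2D1 was the lowest line for MDM2, CDKN1A and BAX, while GCT27 was within 1.5-fold of GCT44 for each of them.

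Among lists of other cell types, the 25 genes of yolk sac and visceral endoderm had a median of -0.36, and 0.00 against NT2D1, with APOA1 at 35.8 units in GCT27. Trophoblast genes had a median of -0.62 over 19 genes, which was 0.00 against NT2D1, 0.00 against GCT44 and -2.16 against TCam-2. GATA3 met the rule there, with 283 units in GCT27, against 5874 in TCam-2, 1806 in NT2D1 and 17360 in GCT44, while CGA, GCM1 and ERVW-1 had 7.01, 45.9 and 78.7 units. Extracellular matrix genes had a median of -0.36 over 31 genes, and -0.52 against NT2D1, with 10 lowest in GCT27. COL1A1 and COL1A2 had 3982 and 1345 units in GCT27, against 6093 and 61.1 in NT2D1, and COL2A1 lay below the floor at 45.3. The 21 genes of the neural and ectoderm list had a median of 0.05, or -0.40 against NT2D1, with PAX6 below the floor at 56.5 units, NES at 1715 and SOX3 at 190.

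Mesoderm and mesenchyme genes had a median of 0.31 over 23 genes, and 0.01 against NT2D1. KDR, a VEGF receptor, was higher, with 1126 units in GCT27, against 29.8 in TCam-2, 125 in NT2D1 and 189 in GCT44. TBXT had 233 units in GCT27, EOMES 1876 against 26237 in GCT44, and MIXL1 lay below the floor at 45.6. Epithelial adhesion genes had a median of 0.19 over 30 genes, or 0.43 against NT2D1 and -0.95 against TCam-2. CDH1, which encodes E-cadherin, had 14524 units in GCT27, against 17193 in TCam-2, 580 in NT2D1 and 5.77 in GCT44. EPCAM had 22390 units in GCT27 and 5782 in NT2D1, CDH2 2711 and 3364, and CDH3 2168 and 332. Blood cell genes had a median of -0.07 over 13 genes, and 0.00 against NT2D1, with CD3D at 161 units and CD3E and CD3G below the floor. Housekeeping genes had a median of -0.12 over 14 genes, and -0.02 against NT2D1, with ACTB at 22603 units, GAPDH at 33234 and TBP at 913.

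**Figure D3:**
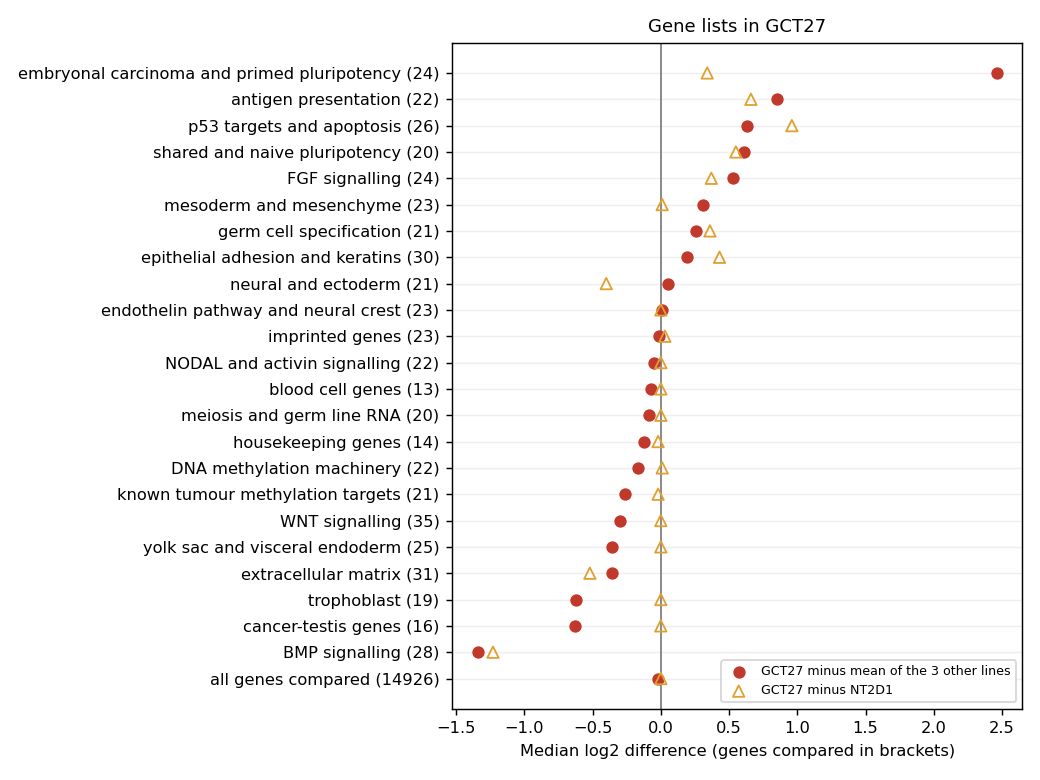
Median log2 difference over the compared genes of each list, for GCT27 minus the mean of the 3 other lines (filled) and GCT27 minus NT2D1 (open), with the number of genes in brackets and all 14926 genes at the bottom. Embryonal carcinoma genes lie at 2.46 but at 0.34 against NT2D1, whereas BMP genes lie at -1.34 and -1.23.

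The position of the genes did not enter their ranking. Chromosome 12 held 15 of the 90 higher genes (16.7%), against 5.53% of the genes compared, and 6 of the 48 lower genes. It included the neighbouring complement genes C1S and C1R, NAV3 next to SYT1, and TRHDE next to LINC02882. Outside chromosome 12, chromosomes 4 and X each held 9 of the 90 higher genes (10%), against 3.74% and 3.68% of the genes compared. The chemokine genes CXCL5 and PF4 were neighbours on chromosome 4. The median difference of all 822 genes of chromosome 12 was -0.01. On chromosome 17 the 849 genes had a median of 0.34, and GCT27 was the highest line for 44.3% of them. The next was chromosome 16 with 34.8%, and chromosome 14 was the lowest with 12.4%. Of the 90 higher genes 8 lay on chromosome 17 (8.89%), against 5.71% of the genes compared.

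**Figure D4:**
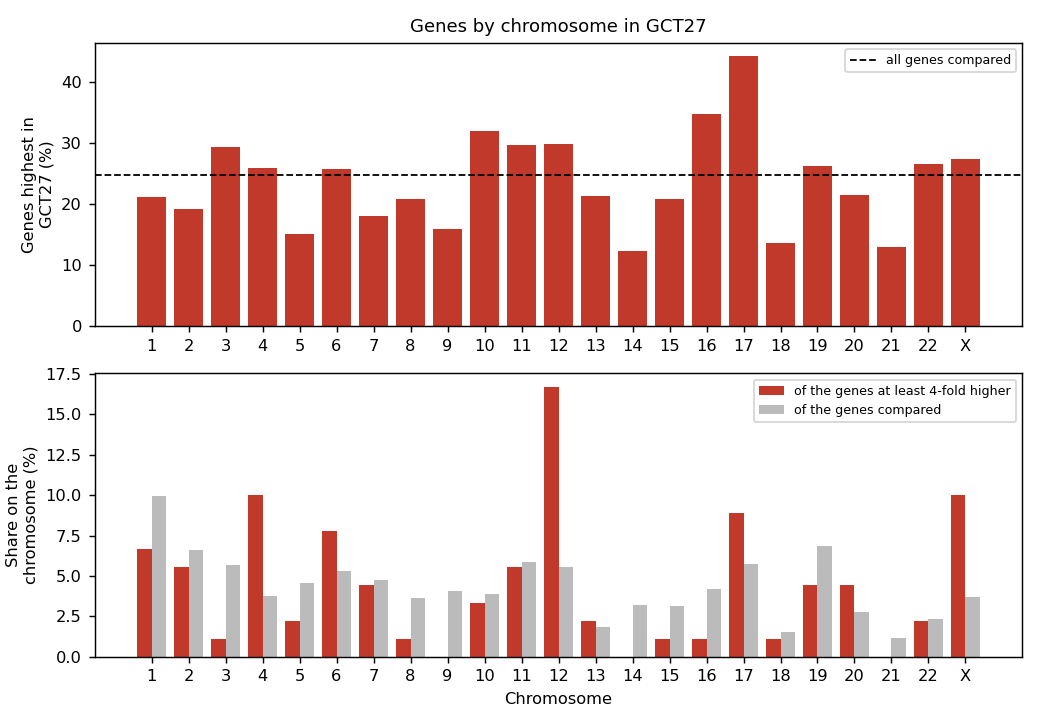
Share of the genes compared on each chromosome for which GCT27 was the highest of the 4 lines (top, with 24.8% over all genes dashed), and the share of higher genes and of all genes compared that lie on each chromosome (bottom). Chromosome 17 stands out at 44.3% in the top panel. In the bottom panel chromosome 12 holds 16.7% of the higher genes against 5.53% of all genes, and chromosomes 4 and X hold 10% each against 3.74% and 3.68%.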

How the data were processed

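Total RNA of 4 cell lines was measured on 1 array each, and samples were grouped by the cell line in the labels. What the authors deposited is intensity on a linear scale. Their mean after trimming 2% from each end was 500.1 on every array. The submitters' processing notes name RMA with no version, whose usual output is log2 values, so background correction and scaling are otherwise not given in the sources used here. GEO's platform annotation gave the genes: 41097 probe sets had 1 gene symbol, 1801 several and 11777 none, and 19775 genes were represented. Genes whose highest value reached the floor were compared, and log2 was taken here. The calculations were made in Python with numpy and pandas.

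The comparisons, the 23 gene lists and the naming rule were all chosen with earlier results of these data known. The rule names the 15 widest margins each way, HORMAD1, LEFTY1 and EDNRB, list members that met the 4-fold rule, the first 3 compared members of each list, the label's markers and the genes next to the threshold. Of 645 listed genes 489 were compared, 80 stayed under the floor in every line, and 76 without a probe set of their own were not analysed here. The alternatives were the median over probe sets, leaving out _s_at and _x_at probe sets, no floor, a floor at the 70th percentile (252 units), no filter, centred or quantile-normalized arrays, scaling to the 18 spiked-in control probe sets, a threshold of 1 on the log2 scale, comparison with the other lines' mean, and leaving out each other line.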

Additional observations from a re-analysis of the deposited data

Results flagged for a closer look

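Probe sets that the annotation lists with no gene or with several genes were outside the comparisons above. Of 13522 such probe sets 6637 reached the floor, and 28 of these were at least 4-fold higher in GCT27 than in the nearest other line (0.422%) and 9 at least 4-fold lower (0.136%). They are given because they hold signal in data that the gene comparisons did not use. The widest margin among them was that of a probe set listed with no gene, with 7882 units in GCT27, against 14.3 in TCam-2, 26.6 in NT2D1 and 46.7 in GCT44. On the lower side, the widest margin was also from a probe set listed with no gene, which had 11 units in GCT27, against 6123 in TCam-2, 3879 in NT2D1 and 4474 in GCT44. A probe set listed with ID2 and ID2B had 81.9 units in GCT27, against 1712 in TCam-2, 761 in NT2D1 and 818 in GCT44, a margin of 3.22 on the log2 scale, against 3.40 for the probe set that represents ID2.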

How the results depend on the processing

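The main counts of 90 higher and 48 lower genes stayed within 1.5 times without multi-transcript probe sets, with no filter, and with centred or quantile-normalized arrays. Other settings moved 1 or both. The median over probe sets gave 26 lower genes. No floor gave 150 higher and 193 lower, and the floor at the 70th percentile 57 and 17. Scaling to the spiked-in controls gave 148 higher genes. A threshold of 1 gave 471 and 278, and the mean of the other lines as comparator 376 and 204. Fewer lines to differ from gave larger counts by construction: 193 and 113 without the seminoma line, 265 and 127 when the teratoma line was left out, 147 and 93 without GCT44. Apart from the floor settings and the threshold, the cause of each shift was not tested. Of 39 named genes 22 met the rule under each setting that gave a value. Of 499 margins recomputed 475 met it, 24 fell short and 0 changed sign. Those that fell short did so with the median over probe sets, without multi-transcript probe sets or with the floor at the 70th percentile. By construction, no floor, no filter, a threshold of 1, the other lines' mean or fewer lines could not make a called gene fall short. The total of 475 thus holds passes fixed in advance and is no measure of stability. Of 253 list medians recomputed 240 moved by less than 1.5-fold. That limit is wider than most of the list medians themselves, so some changed sign within it. Germ cell specification went from 0.26 to -0.15 without multi-transcript probe sets, and the neural and ectoderm list from 0.05 to -0.32 with the higher floor. No paired analysis was possible because each line has 1 array. Intensities near the floor limit all margins of dim genes.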

Other observations

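Among the genes at least 4-fold higher in GCT27, several belong to groups for which no list had been made, and they were picked after their values were seen. Components of the interleukin 12 family of cytokines and receptors were among them. EBI3, a subunit shared by interleukins 27 and 35, had 541 units in GCT27, against 12.7 in TCam-2, 8.55 in NT2D1 and 28.6 in GCT44. IL27RA, a receptor chain for interleukin 27, had 836 units in GCT27, against 60.2 in TCam-2, 180 in NT2D1 and 97.7 in GCT44. Its other probe sets were dim and gave margins of 1.20 and 0.15 on the log2 scale. IL23A had 403 units in GCT27, against 74.1 in TCam-2, 95.3 in NT2D1 and 18.7 in GCT44. The chemokine receptor CCR7 had 396 units in GCT27 and the chemokine CCL26 had 1995, with 440 in NT2D1 as the nearest line. EBI3, IL27RA, IL23A and CCR7 were dimmer than 4 times the higher floor of 252 units, so they cannot meet the rule at that floor. IFIT1 and TRIM25, which interferon induces, also met the rule. IFIT1 had 843 units in GCT27, against 79.1 in TCam-2, 3.54 in NT2D1 and 19.8 in GCT44, and TRIM25, a ubiquitin ligase of the RNA sensing pathway, had 2106 units in GCT27, against 519, 431 and 67.3. IFIT1 was also too dim for the rule at the higher floor, and the other probe set of TRIM25 gave a margin of 0.28. Among the listed genes that interferon induces, PSMB8 and PSMB9 were highest in GCT27, as given above. IRF1 and XAF1 were not, at 78.8 and 88.1 units in GCT27, against 112 and 116 in GCT44.

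Besides EDNRB, further higher genes are known from pigment cells. GPR143, a receptor of the melanosome, had 2126 units in GCT27, against 50.5 in TCam-2, 206 in NT2D1 and 4.57 in GCT44, and RAB38, which sorts melanosome enzymes, had 3596 units in GCT27, against 149, 431 and 63.8. MITF, the central pigment cell factor, had 593 units in GCT27 but 663 in GCT44. JARID2, a partner of Polycomb repressive complex, had 15277 units in GCT27, against 1963 in TCam-2, 3544 in NT2D1 and 845 in GCT44. LRAT, which stores retinol as esters, had 2054 units in GCT27 and 457 in NT2D1, the nearest line. LDHA, the lactate dehydrogenase chain of glycolysis and a member of the housekeeping list, had 28655 units in GCT27, against 13204 in TCam-2, 4538 in NT2D1 and 2427 in GCT44, which is short of the 4-fold rule.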
